A study of Mus musculus with 6 samples.

Results

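The genes described here encode the cytosolic translation initiation factors (eIF) and elongation factors (eEF), with the proteins named for binding or modifying them, as measured in regulatory T cells (Treg). Members were the rows of the deposited count table whose symbol begins with Eif1 to Eif6, Eef1 or Eef2, without the Eif2ak kinases and without named pseudogenes, which gave 72 of 29199 genes. Of these, 62 passed the filter on low counts and were tested among 18321 genes.

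Treg were sorted from the spleen 3 weeks after bone marrow grafting of lethally irradiated hosts, which the study's methods give as C57BL/6 J or CD45.1+ B6 mice, with an equal mixture of C57BL/6 J (B6) and semi-allogeneic B6D2F1 marrow. All Treg were wild-type (WT), came from B6 Foxp3-Thy1.1 reporter mice and had been expanded ex vivo with anti-CD3/CD28 beads, IL-2 and TGFb before transfer. The naive conventional CD4 T cells (Tconv) injected with them came from WT mice (3 libraries) or from littermates in which CMV-cre had deleted the gene for HP1α, a protein of heterochromatin, throughout the body (HP1α KO, 3 libraries). The comparison asked whether the genotype of the Tconv was reflected in the transcriptome of the Treg that had been transferred with them, so no gene was deleted in the cells that were sequenced. The sorted cells had passed through culture, an irradiated host and an allogeneic response, which both groups share. The labels give replicate numbers and do not say whether replicates came from separate animals, so p-values measure the spread between these samples.

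Translation of most mRNAs starts when the cap-binding complex eIF4F and the multi-subunit factor eIF3 bring a small ribosomal subunit to the mRNA, together with eIF2, which carries the initiator tRNA. The subunit scans to a start codon, eIF1, eIF1A and eIF5 control whether that codon is accepted, and eIF5B then joins the large subunit. Elongation is driven by eEF1A, which delivers aminoacyl-tRNA, and eEF2, which moves the ribosome along the mRNA. In T cells this machinery is known to expand on activation, and much of it is controlled by phosphorylation of the proteins, which RNA counts do not measure.

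Total counts per library ranged from 87421755 to 119078882. Foxp3 was at 199.6, 217 and 206 CPM (counts scaled to a library total of 1000000) in Treg with WT Tconv and at 228, 157.9 and 254 in Treg with HP1α KO Tconv, and Ikzf2 was at 1484 to 1930 in all 6 libraries, while of the CD8 T cell genes Cd8a stayed between 0.0617 and 0.487 and Cd8b1 between 5.70 and 8.52. Of the 6 Treg identity genes, Foxp3, Il2ra, Ikzf2, Cd4 and Cd3e overlapped between groups and Ctla4 was lower in every library with HP1α KO Tconv (1243, 1322 and 1093 CPM against 1029, 1047 and 806), and their sum was 3966 to 4577 CPM with WT Tconv and 3802 to 4060 with HP1α KO Tconv. The sum of the 5 plasma cell genes also separated the groups, at 252 to 278 CPM with WT Tconv and 215.4 to 249 with HP1α KO Tconv. Most of it came from Prdm1 (80.2 to 102 CPM) and Xbp1 (127 to 171), which T cells also express, while Jchain, Sdc1 and Mzb1 were at most at 10.4 and Mzb1 was at 0 in 1 library. The part of Ctla4 and of these genes in the members' values was not tested. Replicate 3 of Treg with WT Tconv, called WT 3 below, stood apart through markers of other cells. Its 6 red cell genes summed to 5501 CPM against 370.2 to 688 in the other libraries, its 8 neutrophil genes to 1847 against 42.4 to 229.9, and its 6 macrophage or monocyte genes to 177.7 against 12.8 to 47.7. Lyz2 gave most of the last sum in WT 3 (164.9 CPM). Csf1r, Adgre1, C1qa and C1qb were also highest in WT 3 but at most at 4.03. Cd68 (4.87) was nearly level with the other libraries (3.94 to 4.73). The sort kept CD4+ Thy1.1+ cells of donor type after selection on CD4 beads, a gate that these cells would not pass. None of the red cell, neutrophil or macrophage genes on these lists was at 0 in any library. Replicate 2 of Treg with HP1α KO Tconv (KO 2) stood apart from the other libraries of its group. The chi-square of its counts over genes, divided by the degrees of freedom, was 141.8 and 176.8 against KO 1 and KO 3, and 29.6 between KO 1 and KO 3. By this measure WT 3 also stood apart in its group, at 111.3 and 118.9 against WT 1 and WT 2, with 21.6 between WT 1 and WT 2. In bulk samples, fewer cells of a type and less RNA per cell cannot be told apart.

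Levels were compared between genes as CPM per kilobase of the canonical transcript, as means ± SD over the 6 libraries. These values, and the CPM of members and of other translation genes below, were taken on library totals scaled by TMM, a normalization that sets aside genes of extreme ratio, while the marker CPM above used plain totals. Eef1a1, which encodes eEF1A, was at 5814 ± 439 CPM per kilobase, and Eef2 at 747 ± 45.2. These were followed by the helicase genes Eif4a1 (315 ± 13.1) and Eif4a2 (268 ± 22.8) and by Eef1g, a subunit of the complex that recharges eEF1A with GTP (259 ± 19.2). Eif4a2 lay above Eef1g in all 3 libraries with WT Tconv and below it in all 3 with HP1α KO Tconv. Eif4a1 lay above both in every library but WT 2, where Eif4a2 was higher (306 against 294.5). By the mean over the 6 libraries, the lowest tested members were Eif3j2 (1.38 ± 0.717) and Eef2k, the kinase of eEF2 (1.38 ± 0.885). In WT 3 Eef2kmt was the lowest (1.44), with Eif3j2 at 2.76 and Eef2k at 3.17.

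Members held 2.19%, 2.08% and 2.12% of all counts in Treg with WT Tconv and 2.18%, 2.39% and 2.23% in Treg with HP1α KO Tconv. The groups overlapped, with means of 2.13% ± 0.0592 and 2.27% ± 0.108 (SD, n = 3). Eef1a1 alone took between 45.3% and 51.0% of the member counts. Without it the shares were 1.15% ± 0.0152 (WT Tconv) and 1.16% ± 0.0205 (HP1α KO Tconv), so that 0.0135 of the difference of 0.139 percentage points remained. The first difference was 0.0790 without KO 2, and the second was 0.00484 without WT 2, 0.0252 without KO 1 and 0.00616 without KO 3.

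**Figure D1:**
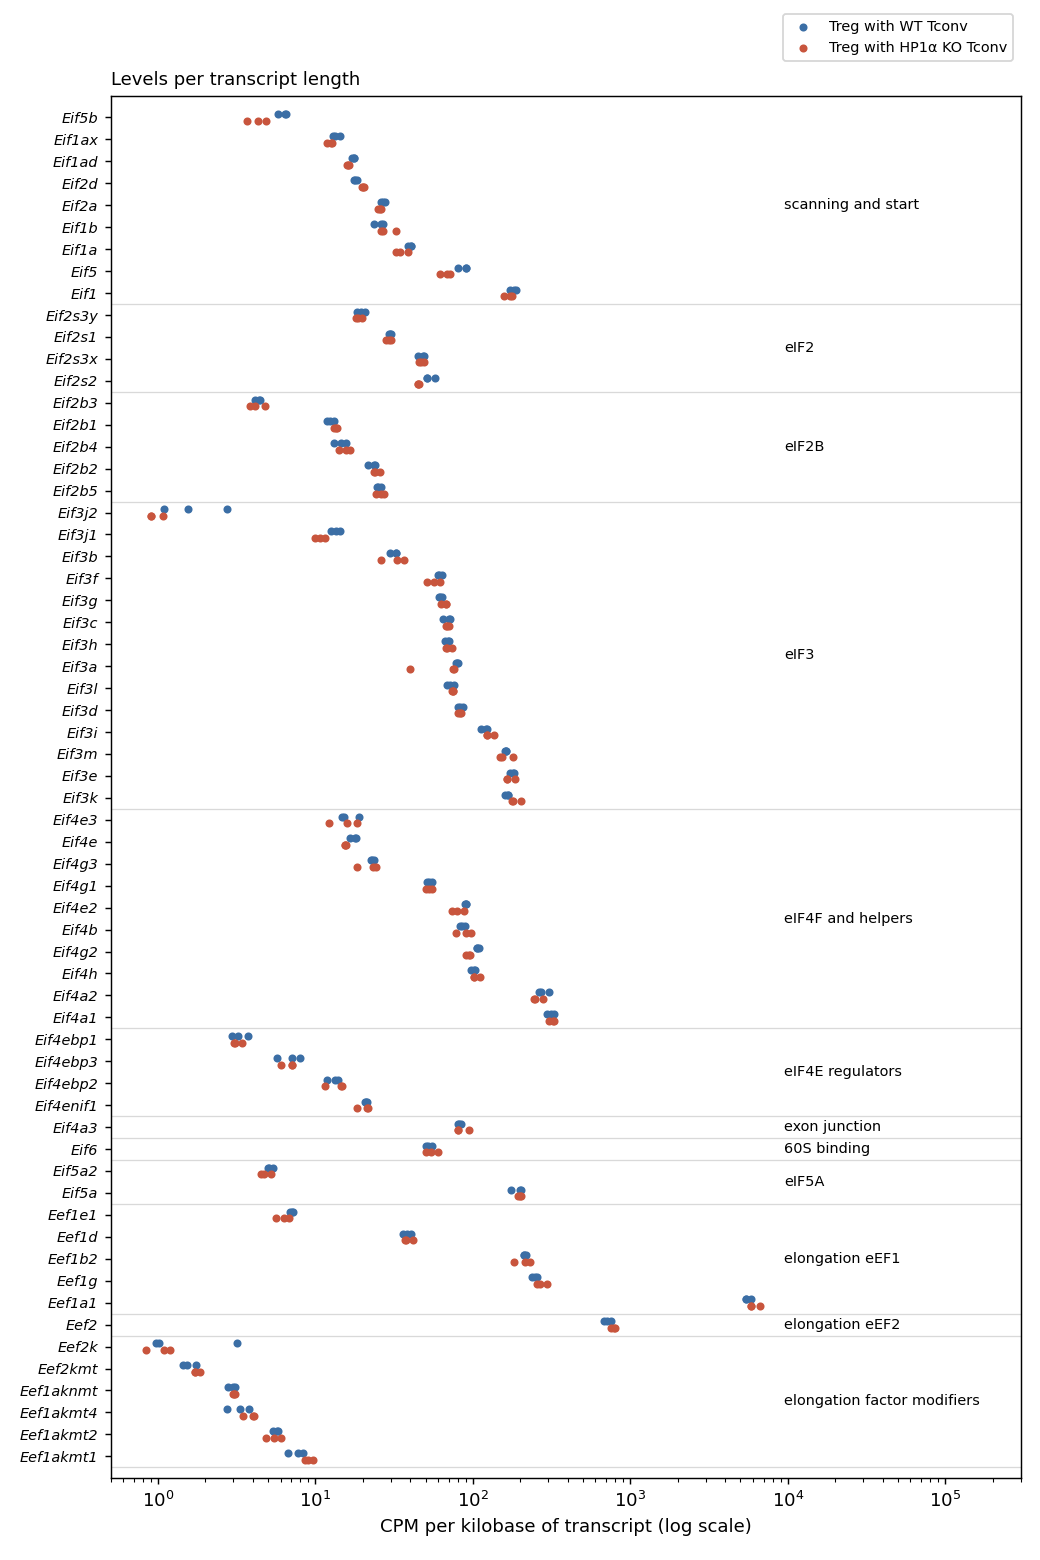
CPM per kilobase of transcript (log axis) of the 62 tested members, grouped by role, with 1 point per library for Treg with WT Tconv (blue) and Treg with HP1α KO Tconv (red). Mean levels span from 1.38 for Eif3j2 to 5814 for Eef1a1, and within most rows the points of the 2 groups lie over each other.

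Of the 62 tested members, 0 passed an adjusted p-value of 0.05 in the quasi-likelihood F-test of edgeR, and 0.0% of all genes tested did. At an unadjusted p-value under 0.05, 9 members were lower with HP1α KO Tconv (14.5% of members, against 7.52% of all genes tested) and 3 were higher (4.84%, against 6.98%). The number lower was 4 with an offset for the GC content of transcripts (3.94% of all genes), 5 with an offset for transcript length (4.41%) and 5 with the replicate number as a block (6.32%). It was also 5 without WT 1 (5.45%), WT 3 (5.72%), KO 1 (6.04%) or KO 3 (5.29%), and the number higher was 0 to 2 in these 7 fits (5.03% to 7.04% of all genes). Under limma-voom 0 members passed the adjusted threshold. DESeq2 called 3 members, all lower, among the 62 that it gave an adjusted p (4.84%, against 3.03% lower and 4.35% in either direction over 12097 genes). These were Eif5b, Eif5 and Eif3j1. In data simulated for this comparison without any change, DESeq2 called 46 of 18321 genes and edgeR called 1. With WT 3 left out DESeq2 called Eif5b alone (0.751% of all genes were called lower), and with KO 2 left out it called 7 members, all lower (7.0% of all genes), which were Eif5b, Eif5, Eif3j1, Eif2s2, Eif4g2, Eif1a and Eif4e2.

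Most members differed little between groups. The median log2 fold change (HP1α KO over WT Tconv) was -0.01, beside -0.01 over all genes tested, and with library totals as the only scaling it was 0.02. The median absolute log2 fold change was 0.09 for members and 0.17 for all genes. The 95% confidence interval of the log2 fold change lay within 0.5 of 0 on either side for 55 of the 62 members. The libraries of one group lay wholly below those of the other for 14 members lower with HP1α KO Tconv (22.6%, against 11.6% of all genes tested), and wholly above for 6 (9.68%, against 11.5%). With library totals as the only scaling these counts were 8 lower (8.89% of all genes) and 10 higher (15.0%), and with RLE scaling, that of DESeq2, 3 were higher (11.2%).

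**Figure D2:**
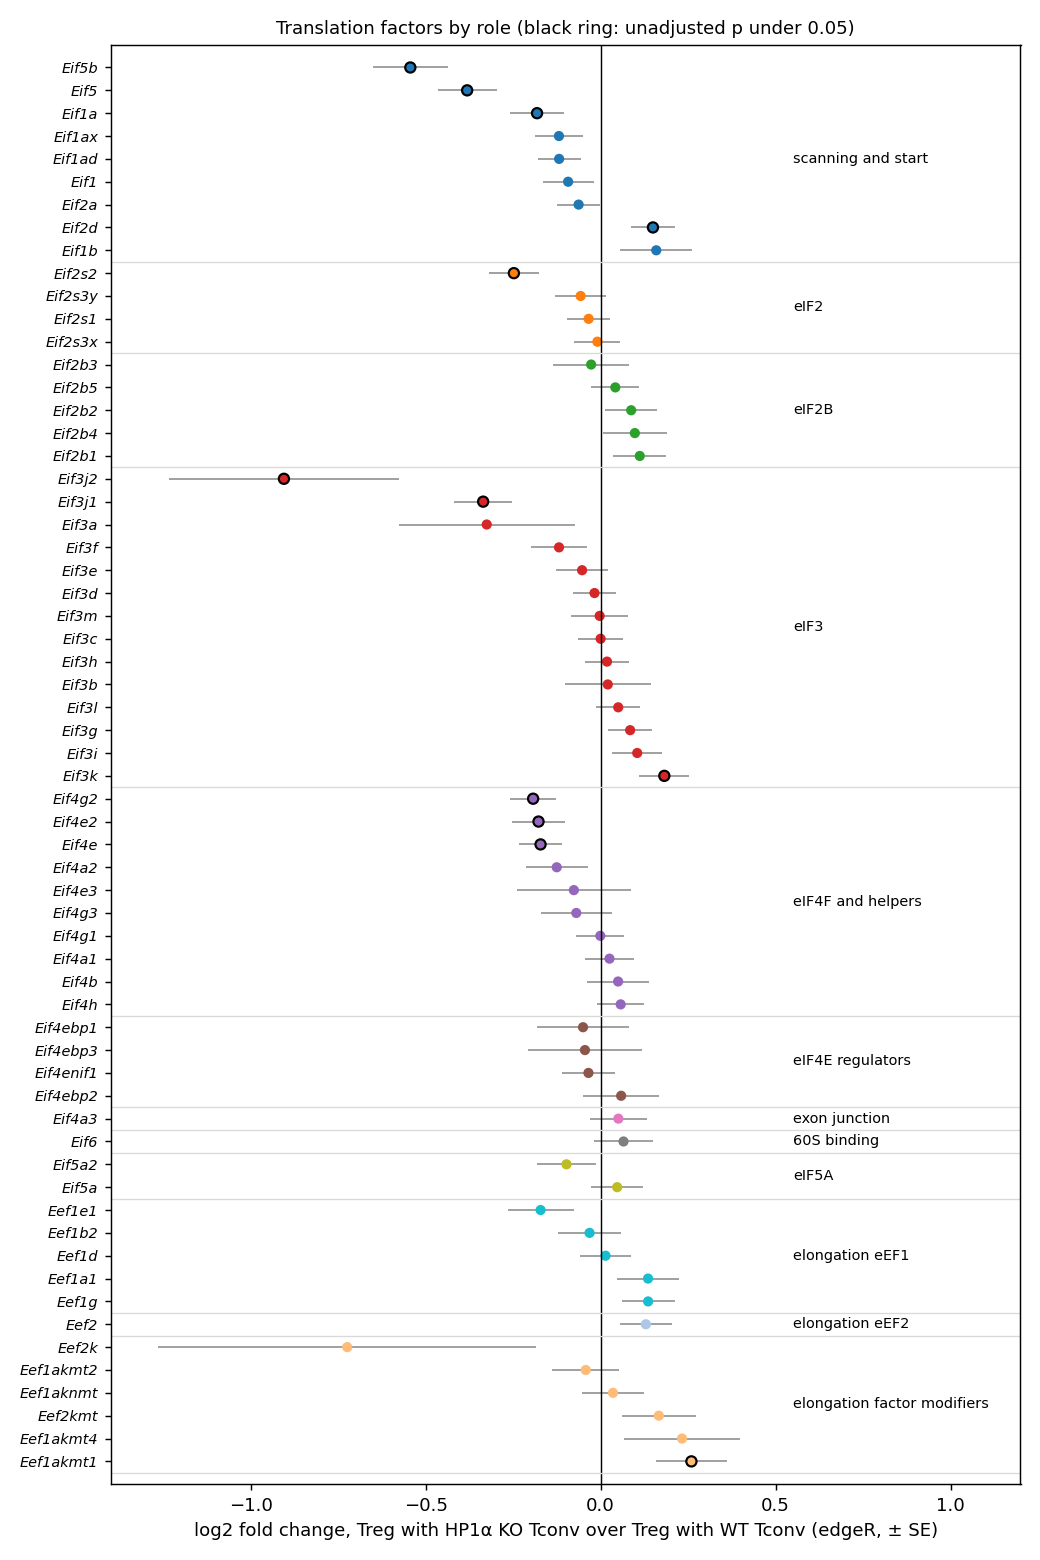
Log2 fold change ± SE from edgeR, HP1α KO Tconv group over WT Tconv group, for the 62 tested members ordered by role; a black ring marks an unadjusted p-value under 0.05. Of the 12 ringed genes 9 lie to the left of 0, and Eif5b, Eif5, Eif3j1 and Eif3j2 lie farthest left among them.

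The 2 smallest p-values among members were those of Eif5b and Eif5, which act in subunit joining and start codon choice. Since translation of these factors' own mRNAs begins at the same kind of site that they help select, the start codons of the genes on which the results turn are shown, from the canonical transcripts of GENCODE on GRCm39, 5′ to 3′ on the mRNA strand, with the start codon in capitals.
Eif5b: tgacaagcgATGggga
Eif5: taagccaaaATGtctg
Eif1: tcgtatcgtATGtccg
Eif3j1: cggttcgagATGgcgg
Eif2s2: actacagccATGtccg
Eef1a1: aaagcaaaaATGggaa
A purine at the third base before the start codon and a G directly after it favour initiation in vertebrates. Eif5b, Eif3j1 and Eef1a1 have both, Eif5 and Eif2s2 have the purine alone, and Eif1 has neither. Among the 57 members with a start codon read in this way, 29 had both (50.9%), beside 44.5% of 16486 protein-coding genes, taken whatever their expression. The purine was lacking in 5 members, which were Eif1b, Eif6, Eif1, Eif4h and Eif3b.

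Eif5b (ENSMUSG00000026083, chr1:38037038-38094683, forward strand, GRCm39) encodes the GTPase that joins the large subunit. Its level was 50.5, 51.2 and 45.2 CPM in Treg with WT Tconv and 37.9, 29.0 and 33.9 CPM in Treg with HP1α KO Tconv. All libraries with HP1α KO Tconv lay below all libraries with WT Tconv, and KO 2 was the lowest. The log2 fold change was -0.54 ± 0.107 (SE), with an adjusted p of 0.209 in edgeR and 0.00125 in DESeq2. In edgeR without the filter on low counts the adjusted p was 0.0365, and Eif5b was the 1 member called in that fit (0.13% of all genes were called). Across the alternatives the log2 fold change ranged from -0.64 to -0.45, with adjusted p-values from 5.91e-05 to 0.437 over edgeR, limma-voom and DESeq2. It was -0.60 without WT 3 and -0.45 without KO 2 in edgeR.

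Eif5 (ENSMUSG00000021282, chr12:111502067-111514340, forward strand, GRCm39) encodes the protein that makes eIF2 hydrolyse its GTP once a start codon is found. It was at 420.2, 473 and 473 CPM with WT Tconv and at 374, 321 and 354 CPM with HP1α KO Tconv. No library of one group reached the range of the other. Its log2 fold change was -0.38 ± 0.0843, with an adjusted p of 0.209 in edgeR and 0.00801 in DESeq2. The adjusted p in DESeq2 was 0.0795 without WT 2 and 0.0728 without WT 3. In edgeR the log2 fold change was -0.27 with a correction for the GC content of transcripts in each library, -0.35 without WT 3 and -0.32 without KO 2.

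The other genes of this role differed less. Eif1a, one of the genes for eIF1A, which stabilises the scanning subunit, was at 83.4, 87.5 and 87.5 CPM with WT Tconv and at 74.2, 83.2 and 70.4 CPM with HP1α KO Tconv. The highest of the second group lay just below the lowest of the first. Its log2 fold change was -0.18 ± 0.0774 (adjusted p of 0.337 in edgeR), and -0.06 with the GC correction. Eif2d, which encodes an alternative carrier of tRNA to the small subunit, was at 37.2, 36.5 and 35.8 CPM against 40.5, 41.1 and 40.0 CPM, with log2 fold change 0.15 ± 0.0628 and an adjusted p of 0.330 in edgeR. Each library of the second group lay above each library of the first. Eif1 (ENSMUSG00000035530, chr11:100210670-100212922, forward strand, GRCm39), whose protein guards against wrong start codons, was at 248.7, 254.5 and 232.9 CPM against 235.5, 241 and 213.7 CPM. The groups overlapped, its log2 fold change was -0.09 ± 0.0727 and the adjusted p in edgeR was 0.595. It was -0.05 without WT 2 and -0.04 without KO 3. A stretch of 663 bases of Eif1 is 96.7% identical to a transcript of Emd, which was at 54.4 to 61.0 CPM, so the division of reads between these genes is uncertain.

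**Figure D3:**
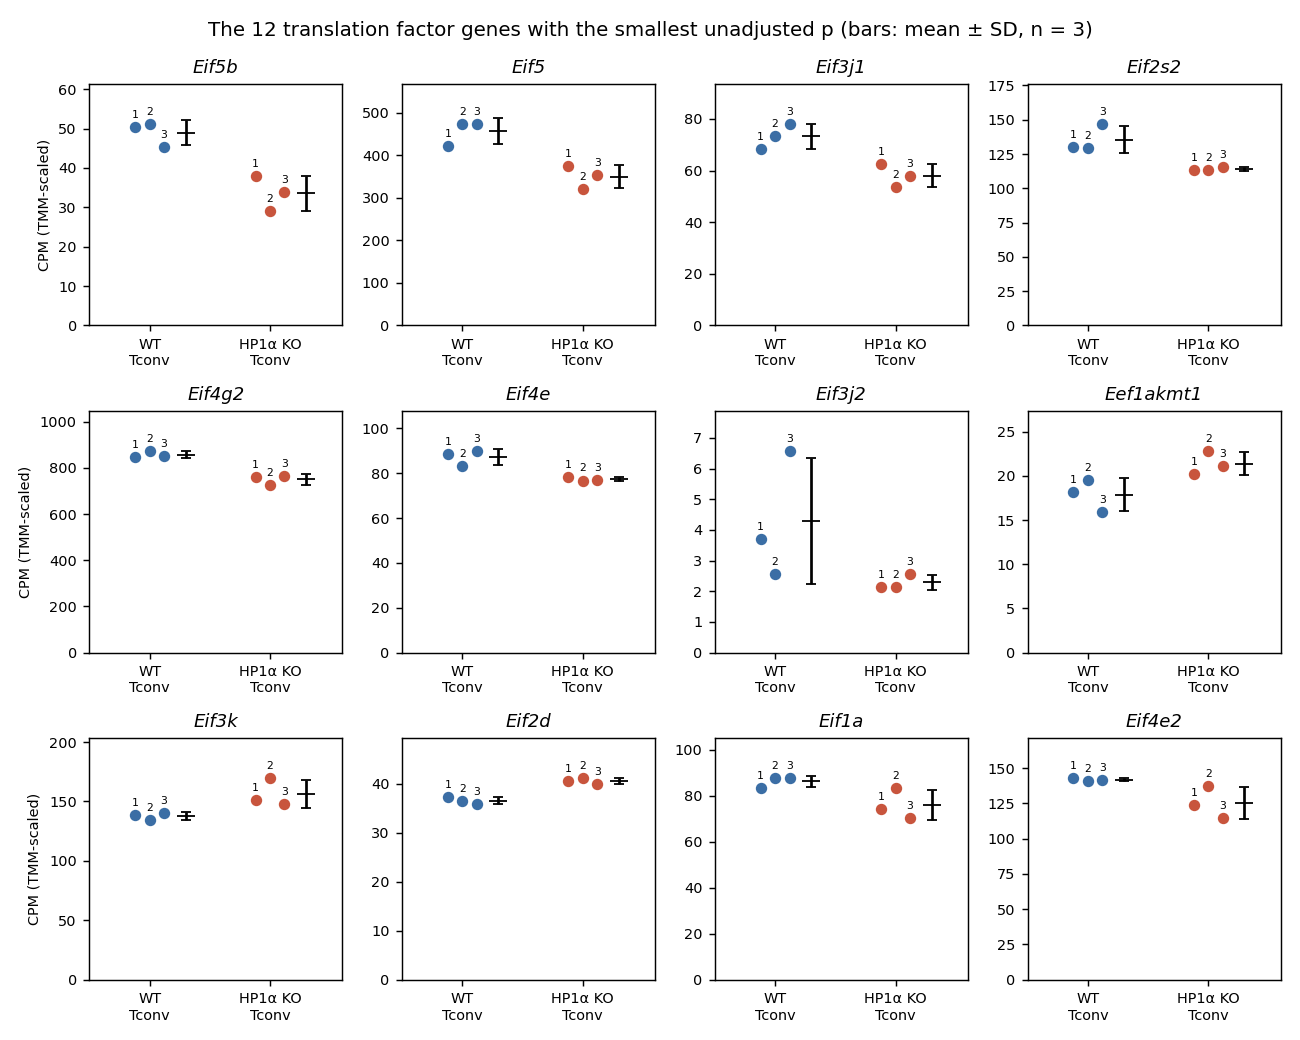
CPM on TMM-scaled totals in each library (points, numbered by replicate) with mean ± SD (n = 3) for the 12 members with the smallest unadjusted p-values; each panel starts at 0. In all 12 panels the groups do not overlap, but the panels were picked for small p-values, so this adds no support. Over all genes tested, 11.6% were wholly lower and 11.5% wholly higher with HP1α KO Tconv. The means lie farthest apart relative to the level in Eif5b and in Eif3j2, where replicate 3 of the WT Tconv group alone reaches 6.57 CPM.

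Of the 4 genes of eIF2, which carries the initiator tRNA, 1 had an unadjusted p under 0.05 in edgeR, beside 14.5% of all genes tested. This was the gene for the beta subunit of eIF2, Eif2s2 (ENSMUSG00000074656, chr2:154713330-154734855, reverse strand, GRCm39). It was at 130.4, 129.4 and 146.9 CPM with WT Tconv and at 113.6, 113.1 and 115.8 CPM with HP1α KO Tconv. Again there was no overlap, and WT 3 was the highest library. Its log2 fold change was -0.25 ± 0.0705, with an adjusted p of 0.220 in edgeR and 0.0886 in DESeq2. It was -0.14 with the GC correction (unadjusted p of 0.148 in edgeR) and -0.19 without WT 3. A pseudogene, Gm9892, is 99.5% identical to Eif2s2 over 992 bases but took only 1.52% as many counts. Eif2s1, for the alpha subunit on which the stress kinases act, was at 103.3, 101 and 100.4 CPM against 95.2, 99.3 and 103.5 CPM. These groups overlapped, with log2 fold change -0.03 ± 0.0621, and the sign turned positive in 4 alternatives. Per length, Eif2s2 (51.3, 50.9 and 57.8 CPM per kilobase) lay above Eif2s3x (48.1, 45.0 and 48.8) in all 3 libraries with WT Tconv. With HP1α KO Tconv it lay below it in all 3 (44.7, 44.5 and 45.6 against 45.1, 49.0 and 46.9). Eif2s3y was the lowest of the 4 genes and gave between 31.9% and 36.5% of the counts of the gamma subunit pair Eif2s3x and Eif2s3y.

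The 5 genes of eIF2B, the factor that recharges eIF2 with GTP, had log2 fold changes from -0.03 to 0.11. An unadjusted p under 0.05 in edgeR was found for 0 of them, beside 14.5% of all genes tested in either direction. Eif2b5, for the catalytic subunit, was at 66.2, 63.2 and 63.4 CPM with WT Tconv and 66.1, 70.05 and 62.3 CPM with HP1α KO Tconv. The groups overlapped and KO 2 was the highest.

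The eIF3 complex was represented by 14 genes, of which 7 had a negative and 7 a positive log2 fold change (51.5% of all genes tested were negative). Eif3j1 (ENSMUSG00000027236, chr2:121858606-121906334, forward strand, GRCm39), for the loosely bound eIF3j subunit, was at 68.1, 73.3 and 78.0 CPM with WT Tconv and 62.5, 53.7 and 57.8 CPM with HP1α KO Tconv. These ranges were separate. Its log2 fold change was -0.34 ± 0.0828, with an adjusted p of 0.209 in edgeR and 0.0328 in DESeq2, with -0.23 under the GC correction, -0.29 without WT 3 and -0.28 without KO 2. Its near copy Eif3j2 was at 3.70, 2.58 and 6.57 CPM against 2.14, 2.15 and 2.57 CPM. WT 2 and KO 3 were almost level and WT 3 stood above the rest. Because the transcripts are 99.4% identical over 2379 bases, reads may be divided wrongly between them, and the log2 fold change of Eif3j2 (-0.90 ± 0.328, adjusted p of 0.285 in edgeR, and -0.46 without WT 3) is uncertain. Eif3j1 and Eif3j2 together were at 71.8, 75.9 and 84.6 CPM against 64.6, 55.8 and 60.4 CPM, and these sums did not overlap either.

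Eif3k, for a peripheral subunit, was at 138.8, 134 and 140.2 CPM with WT Tconv and 150.9, 169.5 and 148.2 CPM with HP1α KO Tconv. Libraries of the 2 groups did not overlap, and KO 2 was the highest. Its log2 fold change was 0.18 ± 0.0718 (adjusted p of 0.304 in edgeR), and 0.12 without KO 2. Eif3a, for the large scaffold subunit, was at 412, 405 and 418 CPM against 385, 207 and 393 CPM. KO 2 lay far below every other library, and the remaining libraries lay close together. This gave a log2 fold change of -0.33 ± 0.251 (adjusted p of 0.602 in edgeR), and of -0.08 without KO 2. Per length, Eif3k (176 ± 15.2 CPM per kilobase over the 6 libraries), Eif3e (175 ± 9.32) and Eif3m (161 ± 10.7) were the highest subunit genes, and Eif3e lay above Eif3k in all 3 libraries with WT Tconv and below it in all 3 with HP1α KO Tconv. Eif3j1 was at 12.1 ± 1.72 and was the lowest apart from Eif3j2.

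In eIF4F and its helpers, 3 of 10 genes had an unadjusted p under 0.05 in edgeR, all lower, beside 7.52% of all genes tested. With the block, the GC offset or the length offset the count was 0 (6.32%, 3.94% and 4.41% of all genes). It was 1 with library totals as the only scaling (5.63%), 0 without WT 1 (5.45%), 1 without WT 2 (5.18%), WT 3 (5.72%), KO 1 (6.04%) or KO 3 (5.29%), and 4 without KO 2 (8.92%). Negative log2 fold changes numbered 7 of 10, beside 51.5% of all genes. Eif4e, which encodes the protein that binds the cap, was at 88.5, 83.1 and 89.9 CPM with WT Tconv and 78.5, 76.7 and 77.0 CPM with HP1α KO Tconv. All libraries of the second group were lower. This gave a log2 fold change of -0.17 ± 0.0623, with an adjusted p of 0.276 in edgeR, and of -0.05 with the GC correction. Eif4g2, for a scaffold that works without eIF4E, was at 846, 872 and 852 CPM against 759, 724 and 767 CPM. These groups were also separate, with log2 fold change -0.19 ± 0.0650 (adjusted p of 0.252 in edgeR), and -0.09 with the correction for GC or for transcript length. Eif4e2, for a cap-binding relative that represses translation, was at 143, 140.7 and 141 CPM against 124, 137 and 115 CPM. The groups came closest at KO 2, and the log2 fold change was -0.18 ± 0.0770 (adjusted p of 0.343 in edgeR), and -0.12 without KO 3.

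The canonical scaffold Eif4g1 was at 336, 326.5 and 349.9 CPM with WT Tconv and 337, 320.3 and 354 CPM with HP1α KO Tconv, with a log2 fold change of 0.00 ± 0.0681. The helicase Eif4a1 was at 584, 523 and 557 CPM against 543, 579 and 571 CPM, and its paralog Eif4a2 at 668, 751 and 639.8 CPM against 596, 681 and 610.2 CPM. The groups overlapped for all 3 genes. Eif4a2 gave 55.3% ± 3.19 of the counts of the Eif4a1 and Eif4a2 pair with WT Tconv and 52.7% ± 1.22 with HP1α KO Tconv (SD, n = 3), and the ranges of these shares overlapped.

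The proteins that hold eIF4E back showed no separation of groups. Eif4ebp1 was at 5.94, 6.43 and 7.50 CPM with WT Tconv and 6.19, 6.87 and 6.13 CPM with HP1α KO Tconv. Eif4ebp2 was at 83.9, 80.1 and 71.4 CPM against 86.9, 69.3 and 88.95 CPM. Per length Eif4ebp2 (13.3 ± 1.35 CPM per kilobase) was above Eif4ebp3 (6.83 ± 0.844) and Eif4ebp1 (3.25 ± 0.290). Eif4ebp3 shares 35.0% of its exonic bases with Maskbp3, so its counts are uncertain. Counts of the 3 Eif4ebp genes made up 50.8% ± 2.22 of their sum with Eif4e in Treg with WT Tconv and 54.5% ± 2.67 in Treg with HP1α KO Tconv, with overlapping ranges.

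Eif6, whose protein keeps the large subunit from joining too early, was at 75.8, 77.9 and 82.8 CPM with WT Tconv and 81.4, 90.8 and 75.3 CPM with HP1α KO Tconv. Eif5a, for the hypusine-bearing factor that helps the ribosome past difficult peptide bonds, was at 270.7, 239 and 275 CPM against 263, 275 and 273 CPM. Both genes overlapped between groups, with log2 fold changes of 0.07 ± 0.0835 and 0.05 ± 0.0738. Per length Eif5a (194 ± 10.2 CPM per kilobase) was far above its paralog Eif5a2 (4.97 ± 0.327). Eif4a3, a helicase of the exon junction complex rather than of eIF4F, had a log2 fold change of 0.05 ± 0.0815. Over the alternatives it ran from -0.0405 to 0.1075.

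Among the elongation factors, Eef1a1 (ENSMUSG00000037742, chr9:78384916-78396778, reverse strand, GRCm39) was at 10412, 9667 and 9741 CPM with WT Tconv and 10417, 11857 and 10484 CPM with HP1α KO Tconv. The groups touched at WT 1 and KO 1, and KO 2 was the highest. The log2 fold change was 0.14 ± 0.0895 (adjusted p of 0.531 in edgeR), and 0.07 without KO 2. Eef2 was at 2111, 2183 and 2319 CPM against 2333, 2422 and 2479 CPM. WT 3 and KO 1 were nearly level, and the log2 fold change was 0.13 ± 0.0747 (adjusted p of 0.474 in edgeR). For both genes the libraries with HP1α KO Tconv all lay above those with WT Tconv, but the nearest libraries were closer than the SD within a group. Eef1a2, the paralog of muscle and neurons, had 1 count in WT 1 and 0 in the other 5 libraries.

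The enzymes that modify elongation factors were the lowest expressed role per length, with a median of 3.27 CPM per kilobase. Eef1akmt1, for a lysine methyltransferase of eEF1A, was at 18.2, 19.6 and 15.9 CPM with WT Tconv and 20.2, 22.8 and 21.1 CPM with HP1α KO Tconv. The groups did not overlap, and the log2 fold change was 0.26 ± 0.101 (adjusted p of 0.301 in edgeR). Eef2k, whose kinase slows elongation by phosphorylating eEF2, was at 6.43, 6.76 and 20.99 CPM against 7.21, 5.57 and 7.93 CPM. WT 3 alone was high, and it is the library with the raised red cell and neutrophil markers and the raised Lyz2. The log2 fold change of Eef2k was -0.72 ± 0.540 (adjusted p of 0.595 in edgeR) with WT 3 and 0.07 without it. The part of those other cells in the level of Eef2k was not tested.

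Libraries differed among themselves within a group. KO 2 was the highest of the 6 libraries for 18 of the 62 members (29.0%, against 21.9% of all genes tested) and the lowest for 20 (32.3%, against 22.3%). Its deviation from the mean of KO 1 and KO 3 reached -0.91 on the log2 scale for Eif3a. KO 1 was the highest for 1 member (1.61%, against 10.6%) and the lowest for 8 (12.9%, against 10.3%), and WT 2 was the lowest for 16 (25.8%, against 14.1%). The deviation of a member from the mean of the other libraries of its group followed transcript length in the libraries with HP1α KO Tconv. Across the 62 members, which share these libraries, Pearson's r with log2 length was 0.60 in KO 1, -0.50 in KO 2 and 0.30 in KO 3. Across 17943 genes it was 0.07, -0.03 and 0.04. Each deviation is taken against the other libraries of the group, so these 3 values are not independent. The part of length in the differences between groups was not tested apart from the length offset given above.

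**Figure D4:**
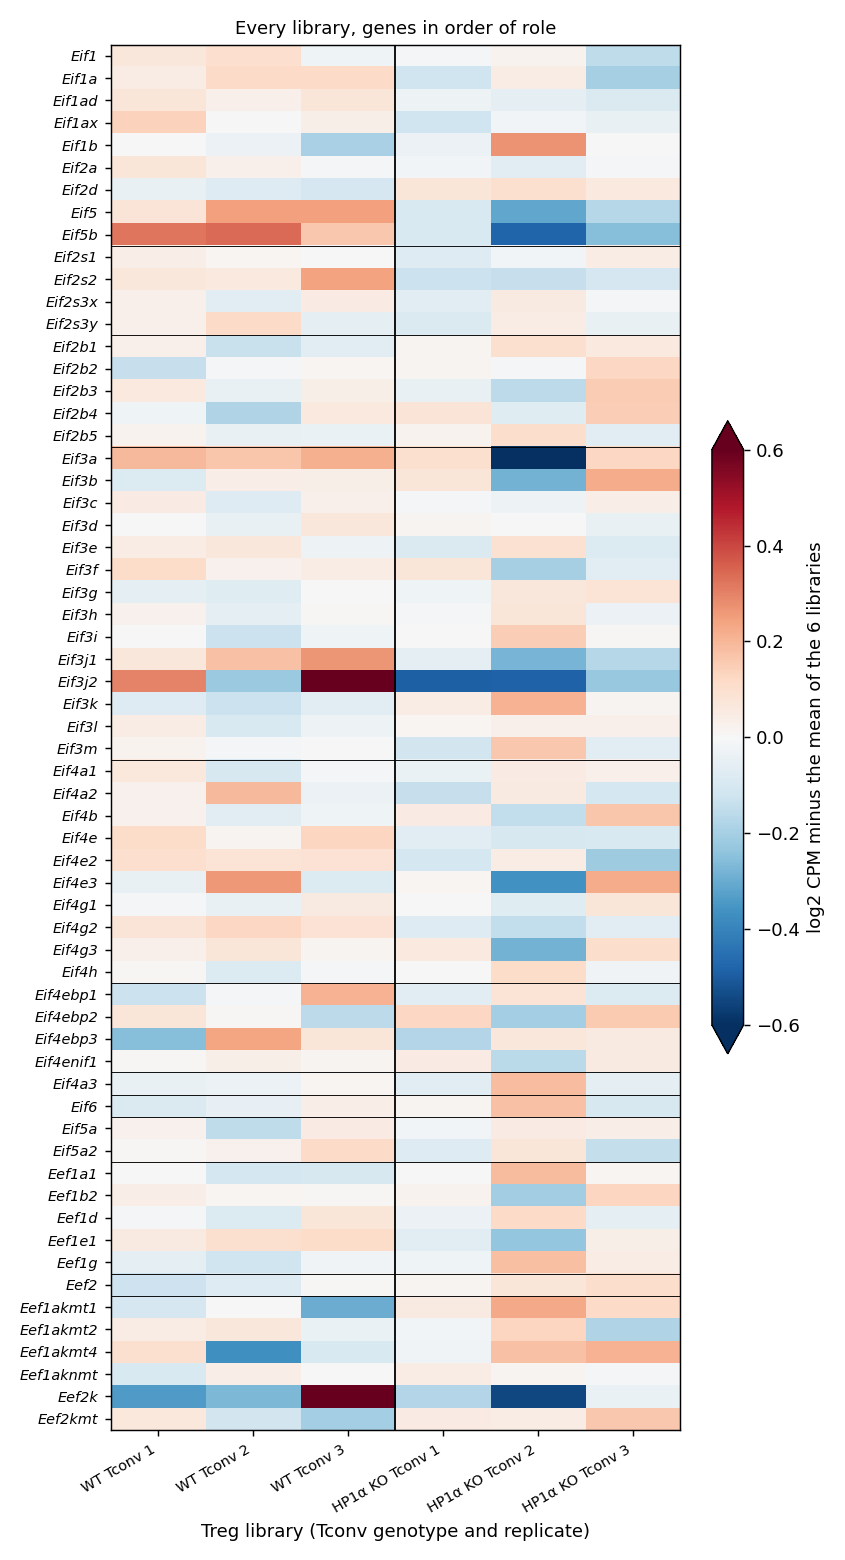
Log2 CPM of each library minus the mean of the 6 libraries, for the 62 tested members in order of role (rows) and the 6 libraries (columns); colours saturate at 0.6 in either direction. Eif5, Eif5b and Eif3j1 are above the mean in all 3 libraries with WT Tconv and below it in all 3 with HP1α KO Tconv, while Eif3a is low in replicate 2 of the HP1α KO Tconv group alone and Eef2k high in replicate 3 of the WT Tconv group alone.

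Many elongation factor and eIF3 mRNAs begin with a 5′ terminal oligopyrimidine (TOP) tract, through which mTORC1 controls their translation. The list of TOP mRNAs held 9 members, Eef1a1, Eef1b2, Eef1d, Eef1g, Eef2, Eif3e, Eif3f, Eif3h and Eif4b. Their log2 fold changes ran from -0.12 to 0.14 with a median of 0.02, and the median of the other 53 members was -0.03. Of the 9, 0 had an unadjusted p under 0.05 in edgeR, beside 14.5% of all genes tested in either direction.

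In the 250 bases before the annotated start of the 62 members' transcripts, read on both strands, the letters GGGCGG of the Sp1 motif were found in 41 (66.1%, against 43.5% of 16935 promoters of the same length). The E-box CACGTG was found in 8 (12.9%, against 7.07%) and the ETS motif CCGGAAG in 9 (14.5%, against 8.34%). The cyclic AMP response element TGACGTCA was found in 0 members and in 1.81% of all promoters. Eif5 held GGGCGG, and Eif5b held none of these motifs in this window. The 62 members had passed the filter on low counts, while the 16935 promoters were those of all protein-coding genes in the count table, whatever their expression. The part of expression level in these shares was not tested. These are descriptions of letters in the window and not of binding.

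Other genes of the pathway were counted from 6 lists with 43 genes, all of which were tested. In edgeR 0 passed the adjusted threshold, and at an unadjusted p under 0.05, 8 were lower and 3 higher with HP1α KO Tconv, beside 7.52% and 6.98% of all genes tested. The number lower was 0 with the length offset (4.41% of all genes), 2 with the GC offset (3.94%), 5 with the block (6.32%) and 3 with library totals as the only scaling (5.63%). It was 1 without WT 3, 2 without WT 2, 3 without WT 1, KO 1 or KO 3, and 7 without KO 2, beside the shares of all genes given above for these fits. The number higher was 3 with the length offset (7.04% of all genes), 4 with the GC offset (6.17%), 3 with the block (5.03%) and 4 with library totals (9.54%). Without WT 1, WT 3 or KO 3 it was 3, without WT 2 or KO 1 it was 4, and without KO 2 it was 5 (5.08% to 7.51%). Of these fits, lower genes outnumbered higher ones only in the main one, with the block and without KO 2. Of the eIF2 kinases and phosphatase subunits, 3 of 6 were lower in the main edgeR fit, beside 7.52% of all genes. Ppp1r15b, which directs the phosphatase that reverses eIF2 phosphorylation, had the smallest p-value. It was at 293, 308 and 315 CPM with WT Tconv and 265, 250.1 and 252 CPM with HP1α KO Tconv. The groups did not overlap, and the log2 fold change was -0.25 ± 0.0639, with an adjusted p of 0.209 in edgeR and 0.0468 in DESeq2. Ppp1r15b was the 1 gene of these 43 called in DESeq2, beside 3.03% lower and 4.35% in either direction of all genes.

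The counts of the remaining lists at an unadjusted p under 0.05 in edgeR stand beside 7.52% lower and 6.98% higher of all genes tested. Over all 6 lists the number lower fell under the alternatives given above, to 0 with the length offset. The mTORC1 and MAPK inputs had 1 of 12 genes lower and 2 higher, with the smallest p-value for Mlst8, a subunit of the mTOR complexes (log2 fold change 0.27 ± 0.0789, adjusted p of 0.229 in edgeR). The poly(A) binding and scanning helpers had 2 of 10 lower, led by Denr, which acts in reinitiation (-0.23 ± 0.0850, adjusted p of 0.287 in edgeR). The termination and rescue factors had 2 of 5 lower, led by Etf1, which recognises stop codons (-0.26 ± 0.0985, adjusted p of 0.291 in edgeR). The mitochondrial factors had 1 of 8 higher, which was Mtif3, the mitochondrial initiation factor (0.36 ± 0.103, adjusted p of 0.220 in edgeR). The 2 hypusine enzymes that activate eIF5A had 0, and Dhps was at 0.03 ± 0.0664.

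The 10 members that were not tested had between 1 and 16 counts over the 6 libraries. They were Eef1a2, 6 genes of the Eif1ad family on chromosome 12 (Eif1ad2, Eif1ad3, Eif1ad8, Eif1ad12, Eif1ad15 and Eif1ad17), the helicase relative Eif4a3l1, the methyltransferase gene Eef1akmt3 with 16 counts, and Eif2c5, a long noncoding RNA that is no translation factor. Of the 9 counts of Eif1ad3 all came from WT 1. At this depth differences between groups were not detectable for these genes.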

How the data were processed

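The members and gene lists were chosen with earlier results of these data known. Per the labels and the study's methods, total RNA was prepared with a stranded kit, and the authors trimmed reads in the nf-core pipeline, aligned them to GRCm39 with STAR and estimated counts per gene with Salmon. The deposited values are these estimated counts, unnormalized and whole, so no rounding was needed. Rows without a symbol held 0.0231% of counts and were kept. Estimated counts share ambiguous reads between near-identical genes by a model.

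Here, edgeR version 4.0.16 (TMM, filterByExpr, glmQLFit with robust = TRUE, glmQLFTest, group as the sole term) tested 18321 genes in R version 4.3.3, with Benjamini-Hochberg adjustment over all of them. DESeq2 version 1.42.0 and limma version 3.58.1 (voom) were alternatives, as were other normalizations and filters, a replicate block, and leaving out each library. Offsets for GC content and transcript length (loess, span 0.5) and DESeq2 without each library were added after seeing the data. Standard errors were derived from the F statistic. Named members were the 12 with the smallest unadjusted p and 16 well-known factors. In data simulated for this comparison (18321 genes), edgeR recovered 4 of 200 genes given a log2 change of 0.5 and 99 of 200 given 1, with 5 and 12 false calls. DESeq2 recovered 55 and 120, with 52 and 60 false calls. With no change simulated, edgeR called 1 gene and DESeq2 called 46. Near-identical copies were found with blastn version 2.17.0 (at least 95% identity over 300 bases).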

Additional observations from a re-analysis of the deposited data

How the results depend on the processing

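Over 23 alternatives and 26 named members, 545 of 598 log2 fold changes kept their direction and their side of the adjusted threshold of 0.05. Counts of members passing that threshold were 0 in edgeR and limma-voom, apart from 1 without a filter, and 3 in DESeq2, where leaving out single libraries gave 1 to 7 (1 without WT 3, 7 without KO 2). The number lower at an unadjusted p under 0.05 (9) was 5 with the replicate block, 4 with the GC offset, 5 with the length offset and 5 to 9 without single libraries (5 without WT 1, WT 3, KO 1 or KO 3, 6 without WT 2 and 9 without KO 2, where 5.18% and 8.92% of all genes were lower). The number higher (3) was 1 in DESeq2 (3.93% of all genes), with the block (5.03%) and with the length offset (7.04%), 0 with the GC offset (6.17%) and 0 to 2 without single libraries (0 without WT 1, WT 3 or KO 2, beside 5.18%, 5.52% and 7.51% of all genes). The replicate block changed no adjusted call. Samples with the same number did not deviate together (r of -0.112, -0.0257 and -0.00735), and samples with different numbers gave r of -0.0172 to 0.0604. The labels do not say whether equal numbers share an experiment or a day. A check on deviations between libraries cannot decide this.

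The members' median of -0.01 became 0.0247 with library totals, 0.0472 with the GC offset, 0.0173 with the length offset and -0.0210 to 0.0135 (without KO 3 and WT 3) without single libraries in edgeR. Members with separate groups numbered 8 lower and 10 higher with library totals (8.89% and 15.0% of all genes), and 3 higher with RLE (11.2%). Without Eef1a1 the difference in member share was 0.0135 points. DESeq2 called 1 of the other translation genes, which was lower (3.03% of all genes were). The cause of these shifts was not tested.

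Among the 26 named members, the sign of the log2 fold change turned for 9 members in 31 values. Other members were not counted here, and the sign turned for some of them, such as Eif4a3 (-0.0405 to 0.1075) and Eif3m (-0.0958 to 0.0872). Eif2s1 was at 0.0037 with library totals, 0.0856 with the GC offset and 0.0084 with the length offset. Eif4g1 was at 0.0198 with upper quartile scaling, 0.0366 with library totals, 0.0007 without a filter and 0.0823 with the length offset, and Eif4ebp1 was at 0.0138 with the GC offset. Without single libraries in edgeR the ranges were -0.0635 to 0.0085 for Eif2s1, -0.0003 to 0.0845 for Eif2b5, -0.0362 to 0.0353 for Eif4g1, -0.0023 to 0.0774 for Eif4a1, -0.1096 to 0.0493 for Eif4ebp1, -0.0056 to 0.1646 for Eif4ebp2, -0.0009 to 0.0857 for Eif5a, -0.0089 to 0.1284 for Eif6 and -0.9953 to 0.0660 for Eef2k. The same fits in DESeq2 reached -0.0050 for Eif2b5 (without KO 2), 0.0221 and 0.0302 for Eif4g1 (WT 3, KO 2), -0.0173 for Eif4a1 (WT 2), 0.0454 and -0.1252 for Eif4ebp1 (WT 3, WT 1), -0.0091 and -0.0047 for Eif4ebp2 (WT 3, KO 3), -0.0160 for Eif5a (WT 2), -0.0138 for Eif6 (KO 2) and 0.0610 for Eef2k (WT 3).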
